A study of Homo sapiens with 12 samples.

Results

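The clustered protocadherin genes were taken as every listed gene whose symbol begins with PCDHA, PCDHB or PCDHG, which gave 52 of the 13951 genes in the expression tables. No measured value entered that rule, but the family was selected on its levels in these same libraries being known, so what follows describes it and no chance test was made over its members. Of these, 15 belonged to the alpha cluster, 18 to the beta cluster and 19 to the gamma cluster, and together they form one array on chromosome 5 (GRCh38 chr5:140786136-141512977, all on the plus strand). The current annotation names 60 such genes. The other 8 (PCDHA14, PCDHB1-AS1, PCDHB19P, PCDHGB5, PCDHGB8P, PCDHGA12, PCDHGB9P and PCDHGC5) were not analysed here, and the 52 had passed the authors' filter on low counts, so they are the expressed part of the array and not the whole of it.

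Clustered protocadherins are cell-surface adhesion proteins of the cadherin superfamily that bind identical copies of themselves on a neighbouring cell. They are best known from neurons, where each cell switches on its own small set of promoters and so acquires a surface identity. Each alpha and gamma gene contributes a large variable first exon with a promoter of its own, which is spliced to constant exons that the whole cluster shares, whereas each beta gene is a single exon. The promoters carry a short conserved element with a CGCT core, CTCF and cohesin loop them to distant enhancers, and DNA methylation of the array accompanies its silencing in several tumour types.

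The libraries came from CWR22Rv1, a prostate carcinoma cell line derived from a xenograft that relapsed after castration. Poly(A) RNA was sequenced from 4 derivatives of the line, 3 libraries each, after 48 h in culture with puromycin at 1 µg/ml. Control cells expressed Cas9 without a guide RNA, LV-MEIS1 cells expressed exogenous MEIS1 from a lentivirus, HOXB13ko cells had been treated with CRISPR against HOXB13 and, per the study's methods, were a recombined pool of clonal knockout lines that had been checked for HOXB13 protein by western blot, and HOXB13ko-LV-MEIS1 cells carried both changes. MEIS1 is a homeodomain cofactor of HOX proteins and HOXB13 is the main HOX factor of prostate epithelium, and the design asks what MEIS1 does to transcripts with and without HOXB13. Each group is a single derived population, and whether LV-MEIS1 cells carry Cas9 is not stated in the labels, so the manipulation and any other difference between these populations cannot be told apart. Nothing in the labels says that the 3 libraries of a group came from separate experiments, so p-values measure only the spread between these libraries.

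MEIS1 stood at 4.25 ± 0.202 CPM (counts scaled by the authors to the size of each library; mean ± SD, n = 3 here and below) in Control and at 47.4 ± 1.96 CPM in LV-MEIS1, and at 3.56 ± 0.118 CPM in HOXB13ko and 29.7 ± 0.365 CPM in HOXB13ko-LV-MEIS1. HOXB13 mRNA went against its label: it was 196 ± 17.1 CPM in Control, 151 ± 0.77 CPM in LV-MEIS1, 327 ± 20.1 CPM in HOXB13ko as labelled, with 354 ± 25.1 CPM where HOXB13ko-LV-MEIS1 was the label. The tables hold no protein measurement, and those libraries are called by their labels throughout. The spacing of low CPM values put the libraries at about 17200000 to 36200000 reads. Depth followed group in part, with HOXB13ko at 28100000 to 36200000 reads and Control at 17200000 to 25900000. LV-MEIS1 had 18100000 to 27000000 reads and HOXB13ko-LV-MEIS1 24900000 to 26300000. Every HOXB13ko library was thus deeper than every other library, and the part of depth in the levels was not tested. At these depths 3 reads correspond to 0.083 to 0.175 CPM, below the lowest value of any clustered protocadherin gene, 0.691 CPM. Of the 11 prostate epithelial marker symbols 10 were listed, and the remaining one, ACP3, is the current name of ACPP, which is among the 10. They stood at a summed 3302 to 3386 CPM in Control libraries, between 2464 and 2498 CPM in LV-MEIS1, 3450 to 3477 CPM in HOXB13ko and 3461 to 3566 CPM in HOXB13ko-LV-MEIS1.

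Reads of 50 bases cannot always be assigned to one member, which limits what a single gene's value means. Over all stretches of 50 bases in the reference transcript of each gene, the share found in no other annotated gene had a median of 37.0% in the alpha cluster (0.857% to 51.8%), 77.5% in the beta cluster (0% to 97.5%) and 50.0% in the gamma cluster (37.8% to 54.8%). The alpha and gamma transcripts have 4 exons and the rest of their length is largely the constant exons, from which reads are divided among members in proportion to the reads that are specific to each. The beta genes at 0% were the pseudogenes PCDHB17P and PCDHB18P, which the current annotation lists again under a second record, and PCDHA1 had 0.857%. The sum over a cluster depends less on how reads are divided among its members, and for this reason the sums are given first, but genes not analysed here share sequence with some members (PCDHGB5 with PCDHGB4, 56.0%, and PCDHB1-AS1 with PCDHB2, 42.4%), so the division can move the sums too.

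The promoters are shown with the word around the CGCT core that was most common in each cluster. RefSeq promoter sequences (GRCh38.p14, 250 bases before to 50 after the start) were matched for 46 of the 52 genes, 13 alpha, 14 beta and 19 gamma. On both strands, ATGTCGCT occurred in 9 of 13 alpha promoters and in 0.234% of all 35116 promoters, GGTGGCGCTG occurred in 12 of 14 beta promoters and in 0.276% of all, and CGCTGT occurred in 16 of 19 gamma promoters and in 11.2% of all. The first was found in 0 beta and 0 gamma promoters and the second in 0 alpha and 0 gamma promoters, while the third was also found in 7 alpha promoters and 1 beta promoter. The words can overlap one another in the CGCT core. The shared core CGCT occurred in 70.0% of all promoters and therefore marks nothing by itself. For each cluster the word was the one containing CGCT, of 8, 10 and 6 bases for alpha, beta and gamma, that most of its promoters carried, with the lengths chosen after the promoters had been read, and a match is a description, not a binding site.

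The windows below are from the plus strand, 5′ to 3′, with the element in capitals. Those of other members, such as PCDHGC3, are left out. The windows shown belong to the members called in the 1.5-fold test described below in any comparison, and to PCDHA12, PCDHB2 and PCDHB4. They lie at chr5:140855828-140855880 (PCDHA10), chr5:140875231-140875283 (PCDHA12), chr5:141094530-141094584 (PCDHB2), chr5:141121709-141121763 (PCDHB4), chr5:141135165-141135219 (PCDHB5), chr5:141177763-141177817 (PCDHB8), chr5:141182296-141182350 (PCDHB16), chr5:141343758-141343808 (PCDHGA3) and chr5:141402705-141402755 (PCDHGA9).
PCDHA10: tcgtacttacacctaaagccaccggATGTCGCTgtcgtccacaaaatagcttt
PCDHA12: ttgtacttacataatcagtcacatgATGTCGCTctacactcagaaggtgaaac
PCDHB2: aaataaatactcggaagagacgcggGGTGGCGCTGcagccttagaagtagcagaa
PCDHB4: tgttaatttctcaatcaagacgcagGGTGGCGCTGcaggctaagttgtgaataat
PCDHB5: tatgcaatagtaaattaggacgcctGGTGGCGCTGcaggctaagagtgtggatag
PCDHB8: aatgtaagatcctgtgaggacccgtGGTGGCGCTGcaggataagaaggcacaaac
PCDHB16: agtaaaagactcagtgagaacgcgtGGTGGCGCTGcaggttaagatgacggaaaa
PCDHGA3: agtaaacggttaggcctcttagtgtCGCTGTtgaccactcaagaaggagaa
PCDHGA9: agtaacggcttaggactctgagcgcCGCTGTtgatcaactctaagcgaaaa
The adjacent genes PCDHB4 and PCDHB5 both carry the beta element, and their levels in LV-MEIS1 are compared below. For PCDHB6, the neighbour on the other side that is also compared, no window with that element was obtained. That can also mean that no promoter was matched for it.

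Taken as a whole, the array was lowest in Control. The 52 genes summed to 366, 357 and 344 CPM in the Control libraries, 460, 479 and 471 CPM in LV-MEIS1, 531, 547 and 536 CPM in HOXB13ko and 506, 525 and 523 CPM in HOXB13ko-LV-MEIS1. No Control library reached the level of any other library, and HOXB13ko was the highest group. The sums have no test of their own, because the members were chosen with results known, and in bulk RNA a larger share of expressing cells cannot be told apart from more RNA per cell.

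The 3 clusters did not move to the same extent. Gamma genes summed to 82.2, 81.2 and 81.0 CPM in Control, 113, 118 and 112 CPM in LV-MEIS1, 126, 128 and 124 CPM in HOXB13ko and 118, 126 and 122 CPM in HOXB13ko-LV-MEIS1, which was 1.40-fold and 1.55-fold the Control mean in LV-MEIS1 and HOXB13ko. Beta genes summed to 190, 187 and 173 CPM in Control, 248, 255 and 256 CPM in LV-MEIS1, 285, 289 and 284 CPM in HOXB13ko and 272, 286 and 289 CPM in HOXB13ko-LV-MEIS1, with ratios to Control of 1.38 and 1.56 in the same groups. In both of these clusters every library of the 3 other groups lay above every Control library.

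Alpha genes summed to 93.9, 89.4 and 89.8 CPM in Control, 98.8, 106 and 104 CPM in LV-MEIS1, 119, 131 and 128 CPM in HOXB13ko and 116, 114 and 112 CPM in HOXB13ko-LV-MEIS1. The ratios to Control were 1.13 in LV-MEIS1 and 1.38 in HOXB13ko, and no pair of the 4 groups overlapped. The differences from Control rested largely on 1 member, PCDHA10. With it left out, a choice made after its values had been seen, the 14 other alpha genes summed to 76.9 ± 2.68 CPM in Control, 71.4 ± 3.05 CPM in LV-MEIS1, 83.1 ± 2.92 CPM in HOXB13ko and 75.6 ± 1.53 CPM in HOXB13ko-LV-MEIS1. LV-MEIS1 then lay below Control, and of the 34.6 CPM by which the alpha sum was higher in HOXB13ko than in Control, 6.16 CPM remained. The lower alpha sum in HOXB13ko-LV-MEIS1 than in HOXB13ko did not rest on it (log2 ratio -0.14 with and without PCDHA10).

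**Figure D1:**
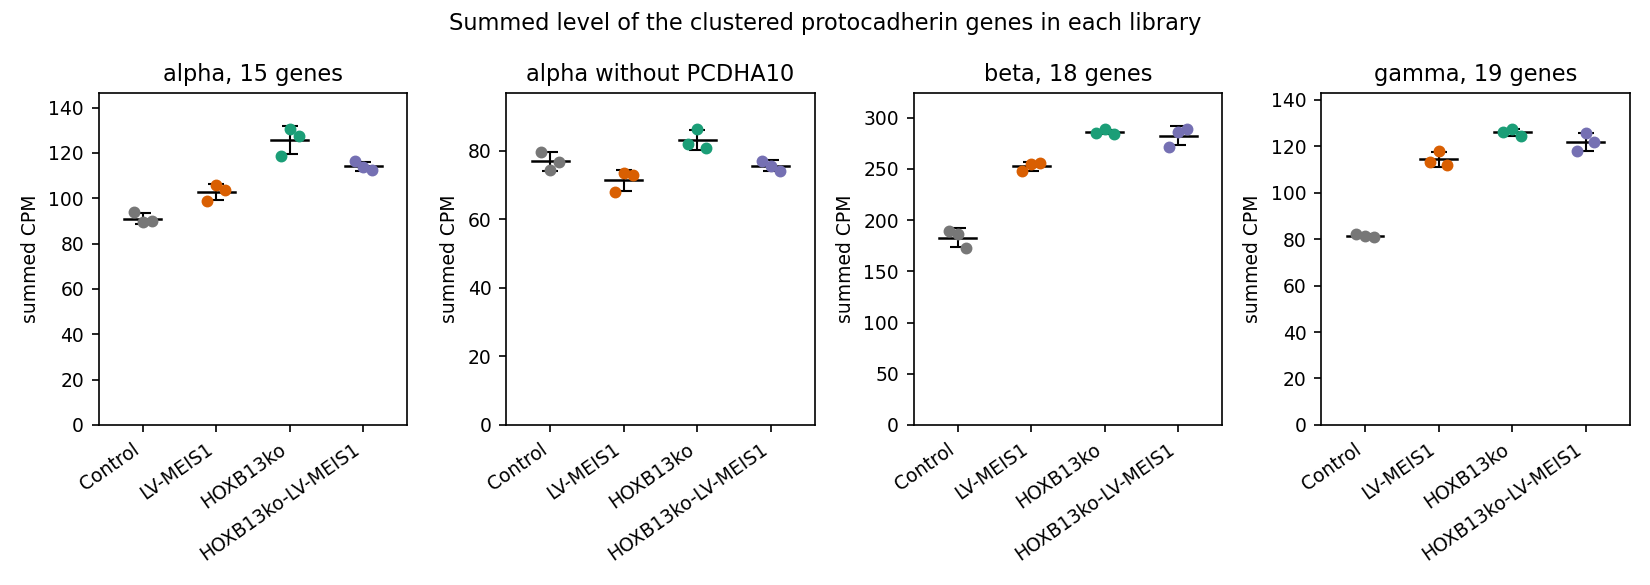
Summed CPM (y axis, from 0) of the alpha genes, the alpha genes without PCDHA10, the beta genes and the gamma genes in the 4 groups (x axis); points are libraries, horizontal bars are means and error bars are SD (n = 3). The Control libraries are lowest in the beta and gamma panels, and the alpha panel loses its rise in LV-MEIS1 once PCDHA10 is taken out (71.4 against 76.9 CPM).

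Levels per length show which members carry each cluster. Divided by exon length and averaged over the 12 libraries, PCDHB8 stood at 15.6 CPM per kb, PCDHB2 at 12.2 CPM per kb and PCDHB13 at 7.03 CPM per kb, the highest of the array. PCDHA10 led the alpha cluster at 5.86 CPM per kb, and PCDHGC3 led the gamma cluster at 5.44 CPM per kb, followed by PCDHGA10 at 4.39 CPM per kb. The lowest members of the alpha, beta and gamma clusters were PCDHA7 at 0.350, PCDHB1 at 0.319 and PCDHGB6 at 0.271 CPM per kb. Expression was uneven along the array. PCDHB8 and PCDHB2 had the 2 highest levels per kb in each of the 4 groups, whereas PCDHA10 stood close to PCDHA4 in Control (2.62 and 2.20 CPM per kb) and well above it in HOXB13ko (7.88 and 2.50 CPM per kb).

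**Figure D2:**
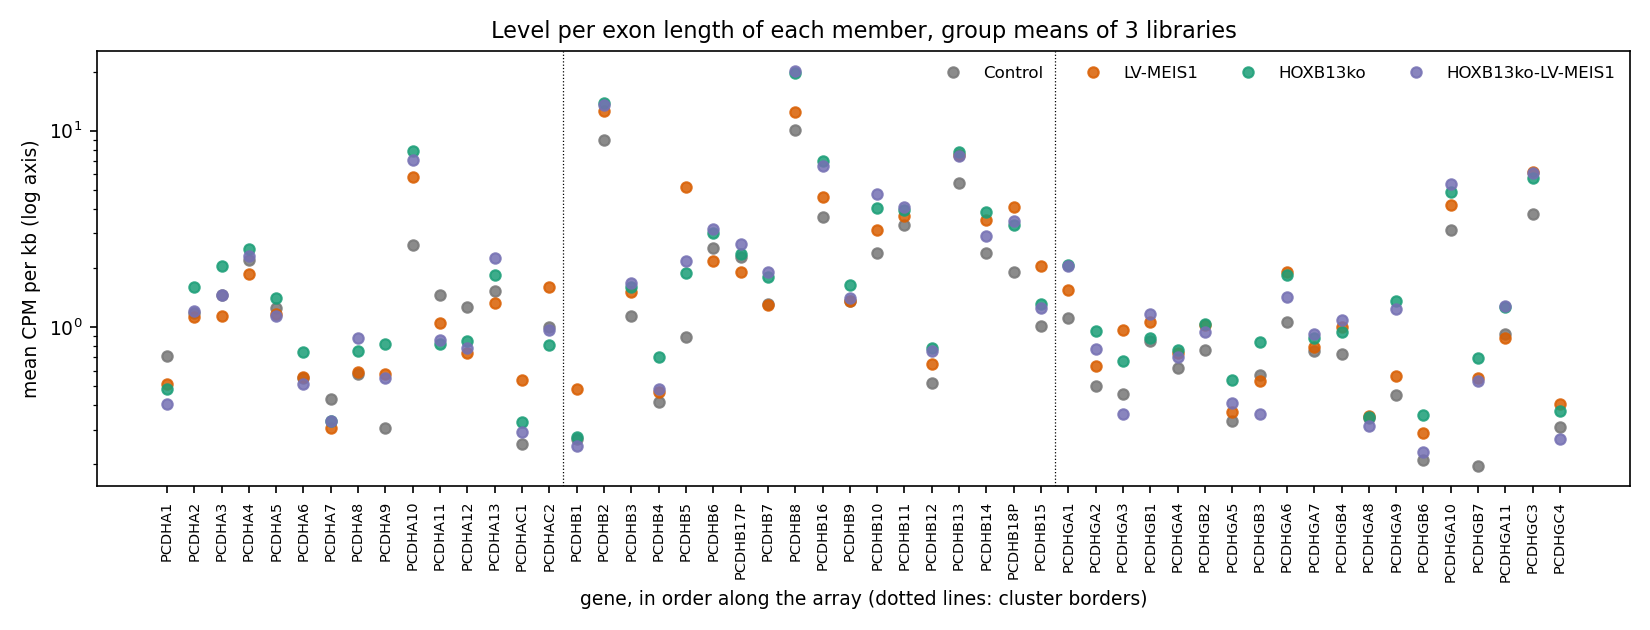
Mean CPM per kb of exon (y axis, log scale) of each of the 52 genes in order along the array (x axis), with 1 point per group (mean of 3 libraries) and dotted lines between the alpha, beta and gamma clusters. PCDHB8 and PCDHB2 are the highest members over the 12 libraries (15.6 and 12.2 CPM per kb), and PCDHB5 is the beta gene whose LV-MEIS1 point stands farthest above its Control point.

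The first comparison asks what exogenous MEIS1 changed where HOXB13 had not been targeted. In LV-MEIS1 against Control, 2 of the 52 genes, PCDHA10 and PCDHB5, rose and 0 fell in a test against a 1.5-fold change (limma treat, Benjamini-Hochberg adjusted p under 0.05 over all 13951 genes). Over all genes, 3.99% were called, 1.75% of them higher and 2.24% lower. Log2 fold changes are differences of mean log2(CPM + 0.5), and their standard errors (SE) come from one fit over the 12 libraries.

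PCDHB5, an intronless beta gene (ENSG00000113209, chr5:141135206-141138615), had the largest difference of the array. It stood at 3.31, 3.27 and 2.54 CPM in Control, 17.5, 17.2 and 18.2 CPM in LV-MEIS1, 6.13, 6.58 and 6.49 CPM in HOXB13ko and 7.52, 7.39 and 7.37 CPM in HOXB13ko-LV-MEIS1. No group overlapped another, and LV-MEIS1 was the highest by far. LV-MEIS1 exceeded Control by 2.36 on the log2 scale (SE 0.10, limma treat adjusted p = 5.6e-09).

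Its neighbours on the array, named for their position after the values had been seen, had no such difference in LV-MEIS1. PCDHB4 had means of 1.59 ± 0.145 CPM in Control and 1.78 ± 0.961 CPM in LV-MEIS1, and PCDHB6 had 8.13 ± 0.544 and 7.04 ± 0.77 CPM. In HOXB13ko PCDHB4 had 2.69 ± 0.239 CPM (log2 fold change against Control 0.61, SE 0.24, not called) and PCDHB6 had 9.73 ± 0.907 CPM (0.24, SE 0.11, not called). PCDHB5 made up 1.65% of the beta sum in Control, 6.97% in LV-MEIS1, 2.24% in HOXB13ko and 2.63% in HOXB13ko-LV-MEIS1. Of the PCDHB5 transcript, 79.2% of stretches of 50 bases occurred in no other gene, and 12.4% occurred in another beta gene.

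PCDHA10 (ENSG00000250120, chr5:140855883-141012347, a variable first exon spliced to the constant exons of the cluster) stood at 14.2, 15.1 and 13.1 CPM in Control, 30.9, 32.6 and 30.8 CPM in LV-MEIS1, 36.7, 44.2 and 46.8 CPM in HOXB13ko and 39.2, 38.1 and 38.4 CPM in HOXB13ko-LV-MEIS1. Control was the lowest group and LV-MEIS1 the next, and only HOXB13ko and HOXB13ko-LV-MEIS1 overlapped. LV-MEIS1 exceeded Control by 1.13 on the log2 scale (SE 0.08, limma treat adjusted p = 0.00031).

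PCDHA10 supplied 15.6 ± 1.2% of the alpha sum in Control, 30.6 ± 0.822% in LV-MEIS1, 33.8 ± 2.89% in HOXB13ko and 33.8 ± 0.327% in HOXB13ko-LV-MEIS1. The genes on either side, again named for position, took different courses. PCDHA9 had means of 1.65 ± 0.356 CPM in Control, 3.11 ± 0.618 CPM in LV-MEIS1 and 4.39 ± 0.649 CPM in HOXB13ko, and PCDHA11 had 7.90 ± 1.72, 5.69 ± 0.578 and 4.41 ± 1.67 CPM. Neither passed the 1.5-fold test in any comparison. In PCDHA10, 44.9% of stretches of 50 bases were found in no other gene.

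Directions were counted by cluster, PCDHA10 and PCDHB5 included, and the difference between clusters was not tested. Reads of sequence that members share were divided among them, so here and below their directions are not separate observations. In LV-MEIS1 against Control, 6 of 15 alpha genes had a positive log2 fold change (median -0.10, range -0.76 to 1.13), against 15 of 18 beta genes (median 0.35, range -0.23 to 2.36) and 17 of 19 gamma genes (median 0.29, range -0.28 to 1.10), where 51.0% of all genes had one and the median over all genes was 0.01. Among alpha genes, 4 lay above Control and 4 below without overlap, and limma eBayes called 4 higher and 1 lower. All 3 LV-MEIS1 libraries lay above all 3 Control libraries for 22 of the 52 genes and below for 5, against 26.3% and 25.1% of all genes. Against no change rather than 1.5-fold, 21 of the 52 genes were called higher and 1 lower (limma eBayes, adjusted p under 0.05), beside 44.5% of all genes, 23.2% higher and 21.3% lower. The members were thus called about as often as genes in general, and 21 of their 22 calls were in 1 direction.

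The lowest change of each cluster was in a member of modest level. PCDHA12, the lowest alpha change, had means of 6.85 ± 0.782 CPM in Control and 3.97 ± 1.23 CPM in LV-MEIS1 (log2 fold change -0.76, SE 0.23). PCDHB17P, a beta pseudogene with the lowest beta change, had 5.44 ± 0.482 and 4.56 ± 0.458 CPM (-0.23, SE 0.13), and PCDHGB3 had 2.69 ± 0.261 and 2.52 ± 1.73 CPM (-0.28, SE 0.36). None of the 3 passed the 1.5-fold test in any comparison.

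PCDHGB7, the highest gamma change, had 0.931 ± 0.138 CPM in Control and 2.63 ± 0.867 CPM in LV-MEIS1, without overlap (log2 fold change 1.10, SE 0.22, limma treat adjusted p = 0.30). PCDHB2 and PCDHGC3, the beta and gamma genes with the highest mean CPM, had smaller differences. PCDHB2 had 36.7 ± 2.67 and 51.4 ± 3.32 CPM (0.48, SE 0.07), and PCDHGC3, a C-type gamma isoform, had 18.0 ± 0.754 and 29.3 ± 4.24 CPM (0.68, SE 0.12). Both lay above Control in every LV-MEIS1 library, and neither passed the 1.5-fold test.

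The C-type genes, which lie at the ends of the alpha and gamma clusters and in neurons are regulated apart from the alternate isoforms, summed to 26.7 ± 0.969 CPM in Control, 43.6 ± 4.06 CPM in LV-MEIS1, 35.5 ± 5.59 CPM in HOXB13ko and 37.6 ± 1.92 CPM in HOXB13ko-LV-MEIS1. The alternate alpha genes PCDHA1 to PCDHA13 summed to 83.8 ± 2.04, 90.5 ± 2.03, 119 ± 6.2 and 107 ± 2.2 CPM in the same order. The C-type sum was thus highest on average in LV-MEIS1, where its libraries overlapped those of both groups labelled HOXB13ko. Most of it was PCDHGC3, with means of 29.3, 27.2 and 29.0 CPM in LV-MEIS1, HOXB13ko and HOXB13ko-LV-MEIS1. PCDHAC2 had 9.20, 4.63 and 5.55 CPM in the same order. The alternate alpha sum was highest in HOXB13ko, and it includes PCDHA10 (means of 14.2 CPM in Control and 42.6 CPM in HOXB13ko). No test addressed these sums.

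**Figure D3:**
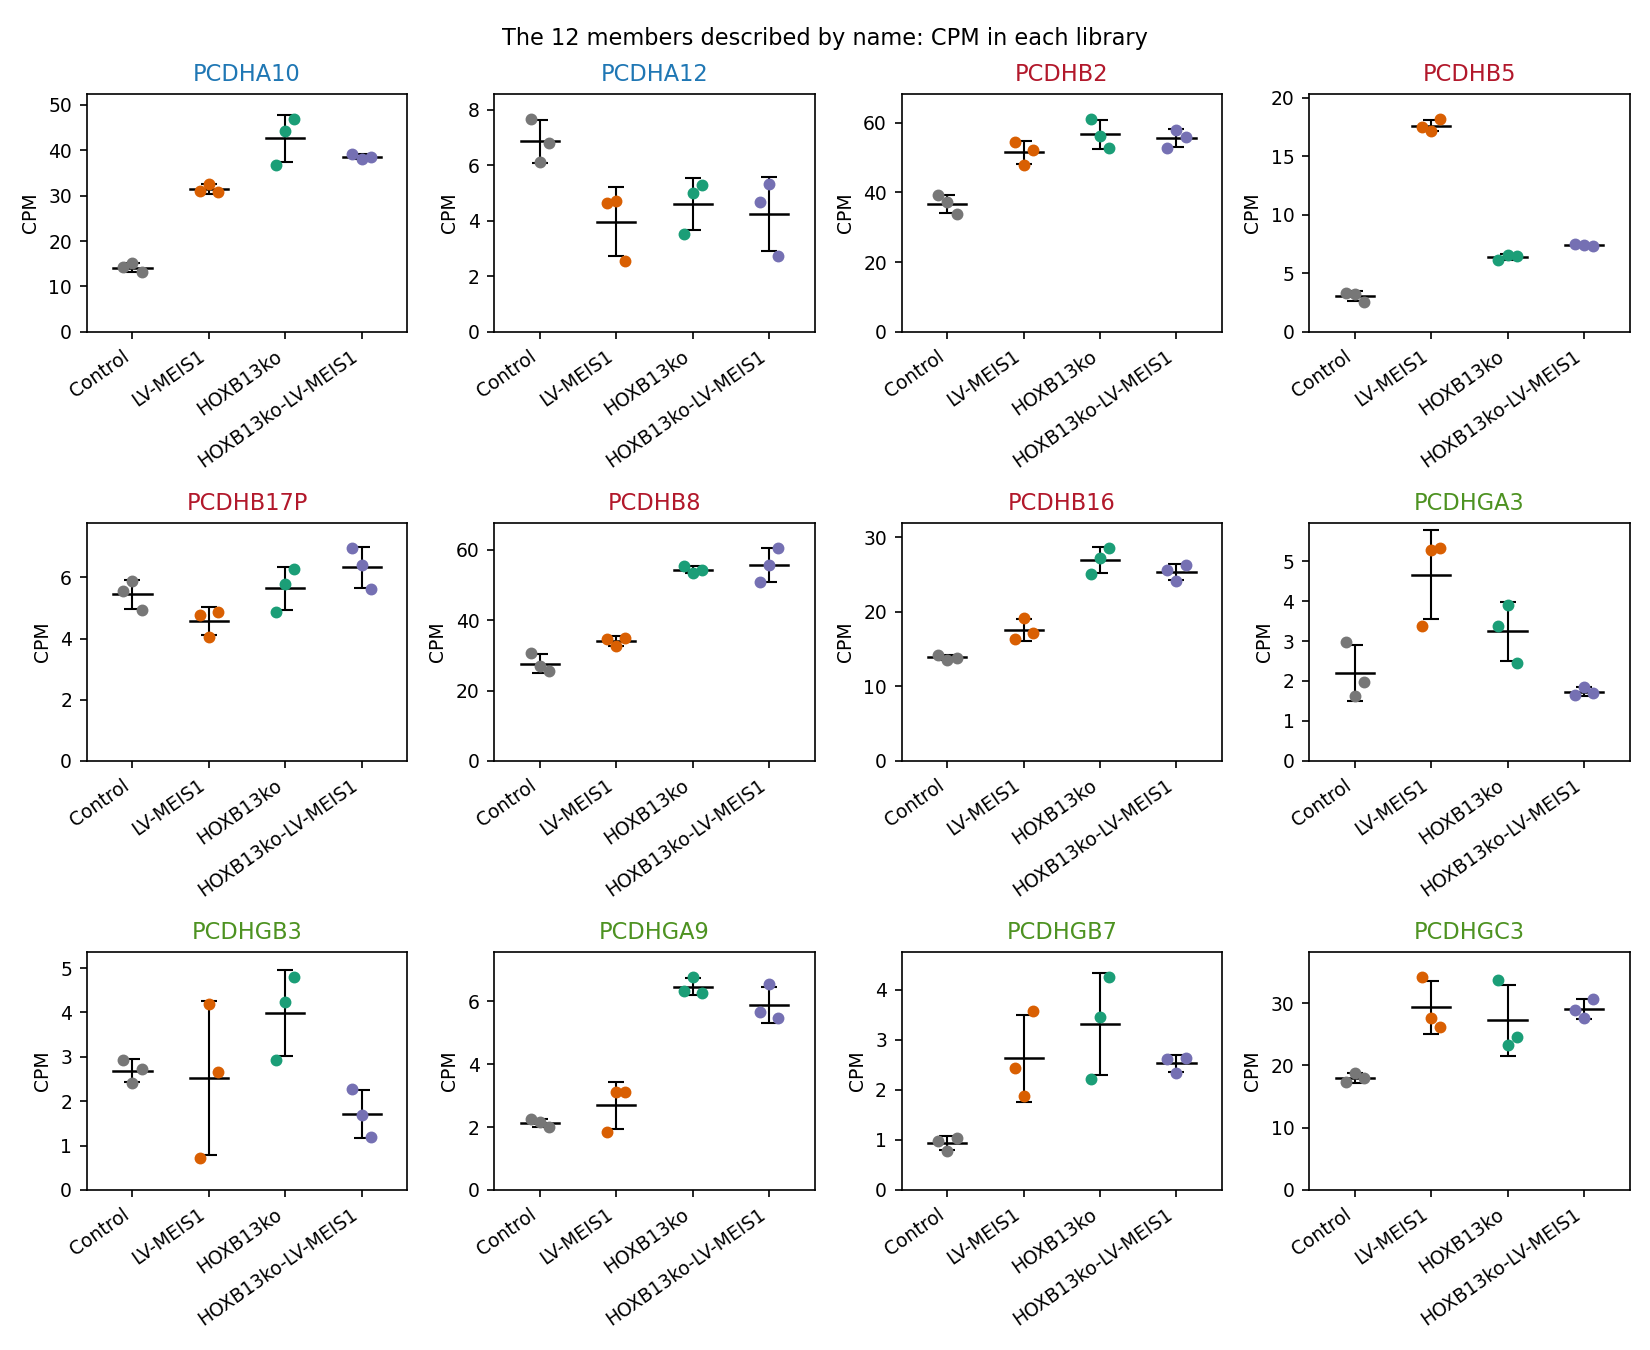
CPM (y axis, from 0) of the 12 members described by name in the 4 groups (x axis), with titles coloured by cluster (alpha blue, beta red, gamma green); points are libraries, horizontal bars are means and error bars are SD (n = 3). PCDHB5 is highest in LV-MEIS1 (17.2 to 18.2 CPM), whereas PCDHA10, PCDHB8, PCDHB16 and PCDHGA9 are highest in the 2 groups labelled HOXB13ko.

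The second comparison sets the libraries labelled HOXB13ko against Control, in which HOXB13 mRNA was higher in the former. Here 4 of the 52 genes rose and 0 fell in the 1.5-fold test (PCDHA10, PCDHB8, PCDHB16 and PCDHGA9), beside 1.41% of all genes called, 0.652% higher and 0.76% lower. Without Control replicate 3 the count was 2, because PCDHB8 and PCDHB16 no longer passed. Both comparisons with Control use the same 3 Control libraries, so their values are given side by side and not as independent evidence.

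PCDHA10 rose by 1.55 on the log2 scale (SE 0.08, limma treat adjusted p = 2.9e-06), on the values given above. PCDHB8 (ENSG00000120322, chr5:141177790-141180539) stood at 30.6, 26.8 and 25.5 CPM in Control, 34.63, 32.56 and 34.98 CPM in LV-MEIS1, 55.3, 53.3 and 54.1 CPM in HOXB13ko and 50.9, 55.8 and 60.5 CPM in HOXB13ko-LV-MEIS1. The 2 groups labelled HOXB13ko overlapped each other and lay above both of the others. PCDHB8 rose by 0.96 on the log2 scale in HOXB13ko against Control (SE 0.08, adjusted p = 0.0089). PCDHB8 shares 32.8% of its stretches of 50 bases with PCDHB13, whose means, given for that reason, were 27.3 ± 1.4 CPM in Control, 37.8 ± 4.1 CPM in LV-MEIS1, 39.6 ± 2.12 CPM in HOXB13ko and 37.7 ± 2.06 CPM in HOXB13ko-LV-MEIS1.

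PCDHB16, the next gene along the array (ENSG00000272674, chr5:141182387-141186226), stood at 14.2, 13.6 and 13.8 CPM in Control, 16.4, 19.2 and 17.1 CPM in LV-MEIS1, 25.1, 27.2 and 28.5 CPM in HOXB13ko and 25.6, 24.2 and 26.3 CPM in HOXB13ko-LV-MEIS1. As with PCDHB8, Control was lowest, LV-MEIS1 next, and the 2 groups labelled HOXB13ko overlapped above them. Its log2 fold change in HOXB13ko against Control was 0.93 (SE 0.08, adjusted p = 0.020). That call was lost without any one of 4 libraries (replicates 2 and 3 of Control and of HOXB13ko), with adjusted p between 0.0768 and 0.130.

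PCDHGA9, a gamma gene of the A subfamily (ENSG00000261934, chr5:141402778-141512975), was low in Control at 2.26, 2.16 and 2.00 CPM and in LV-MEIS1 at 1.84, 3.11 and 3.13 CPM. It reached 6.35, 6.78 and 6.28 CPM in HOXB13ko and 5.67, 6.54 and 5.46 CPM in HOXB13ko-LV-MEIS1. Control and LV-MEIS1 overlapped, and both lay below every HOXB13ko and HOXB13ko-LV-MEIS1 library. The rise in HOXB13ko against Control was 1.40 on the log2 scale (SE 0.16, limma treat adjusted p = 0.0068). PCDHB5 had a log2 fold change of 0.97 (SE 0.10) in this comparison and missed the threshold (adjusted p = 0.062).

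Direction was more uniform than in the first comparison. The log2 fold change in HOXB13ko against Control was positive for 18 of 18 beta genes (median 0.51, range 0.04 to 0.97), 19 of 19 gamma genes (median 0.49, range 0.02 to 1.40) and 10 of 15 alpha genes (median 0.28, range -0.80 to 1.55), where 49.8% of all genes had a positive one and their median was 0.00. These counts were the same under the 3 other scalings, but members that share sequence are not separate observations. All 3 HOXB13ko libraries lay above all 3 Control libraries for 30 of the 52 genes and below for 2, against 21.8% and 23.1% of all genes. Against no change, 22 were called higher and 1 lower by limma eBayes, beside 32.9% of all genes, 16.5% higher and 16.4% lower. PCDHGB7 reached 3.31 ± 1.03 CPM in HOXB13ko (log2 fold change 1.38, SE 0.22) and missed the 1.5-fold test (limma treat adjusted p = 0.077), although it passed without LV-MEIS1 replicate 3 or HOXB13ko replicate 1 (adjusted p = 0.0472 and 0.0151). Several other members differed by more than 1.5-fold in their means without passing that test, among them PCDHA9 with a log2 fold change of 1.19.

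**Figure D4:**
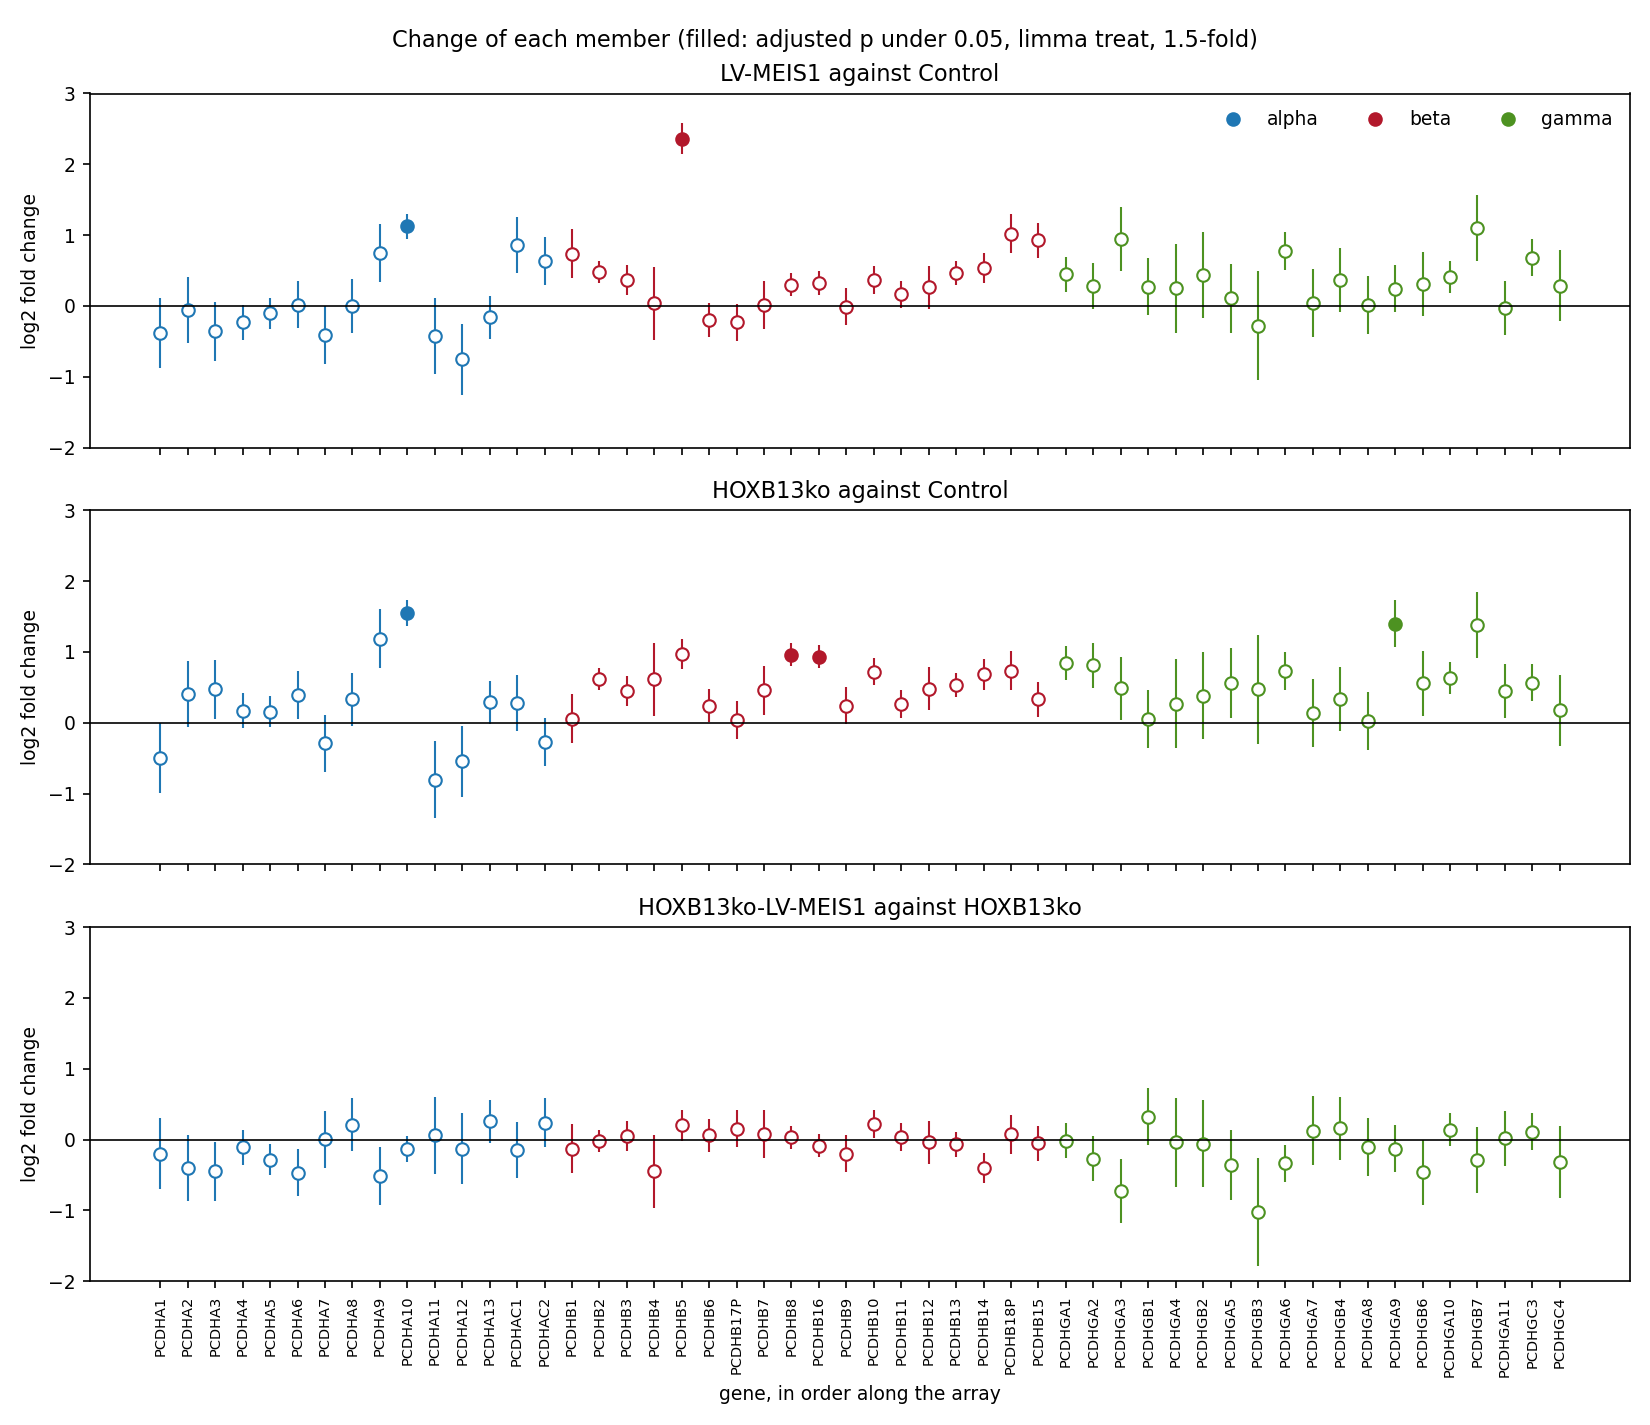
Log2 fold change of log2(CPM + 0.5) (y axis) of the 52 genes in order along the array (x axis) in 3 comparisons; vertical lines are 95% confidence intervals of the limma fit, colours are clusters, and filled points passed the 1.5-fold test. In HOXB13ko against Control the 18 beta and 19 gamma points are above 0, and in HOXB13ko-LV-MEIS1 against HOXB13ko the 52 open points lie on both sides of 0.

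The third comparison asks what exogenous MEIS1 changed in cells labelled HOXB13ko. Of the 52 genes, 0 were called in HOXB13ko-LV-MEIS1 against HOXB13ko by limma treat and 0 by limma eBayes, and 0 had an unadjusted treat p under 0.05. Over all genes treat called 0.00717%, which is 1 gene, MEIS1 itself, and eBayes called 0.0502% (0.0215% higher and 0.0287% lower). The log2 fold changes ran from -1.02 (PCDHGB3) to 0.32 with a median of -0.06, and 20 of 52 were positive beside 51.9% of all genes. With quantile-normalized libraries 26 of 52 were positive, so the direction here rests on the scaling.

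For the members that rose with MEIS1 in the first comparison the intervals were narrow. PCDHA10 had a log2 fold change of -0.13 (95% confidence interval -0.31 to 0.04) and PCDHB5 one of 0.20 (-0.02 to 0.42) in HOXB13ko-LV-MEIS1 against HOXB13ko. The 3 HOXB13ko-LV-MEIS1 libraries nevertheless lay above the 3 HOXB13ko libraries for PCDHB5 (7.37 to 7.52 against 6.13 to 6.58 CPM). In this comparison 4 of the 52 genes had all libraries above and 11 all below, beside 10.6% and 10.6% of all genes.

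The difference between the 2 MEIS1 effects, LV-MEIS1 against Control minus HOXB13ko-LV-MEIS1 against HOXB13ko, was tested directly. It passed the 1.5-fold test for 3 of the 52 genes, all with the larger effect outside the libraries labelled HOXB13ko, beside 2.93% of all genes and 1.31% in that direction. PCDHB5 differed by 2.16 on the log2 scale (SE 0.14, limma treat adjusted p = 2.5e-06) and PCDHA10 by 1.26 (SE 0.12, adjusted p = 0.0015). The PCDHA10 level in HOXB13ko, without exogenous MEIS1, was above that in LV-MEIS1 in every library. Against no change, limma eBayes called 16 members, beside 34.2% of all genes.

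The remaining gene was PCDHGA3, a gamma gene of the A subfamily (ENSG00000254245, chr5:141343829-141512975). It stood at 2.98, 1.62 and 1.98 CPM in Control, 3.38, 5.28 and 5.33 CPM in LV-MEIS1, 3.38, 3.89 and 2.45 CPM in HOXB13ko and 1.65, 1.86 and 1.69 CPM in HOXB13ko-LV-MEIS1, so it was higher with MEIS1 in one background and lower in the other, without overlap in either. The effects differed by 1.67 on the log2 scale (SE 0.30, adjusted p = 0.043), while neither effect alone passed the 1.5-fold test (0.94 and -0.73). Leaving out any one of 9 of the 12 libraries ended the call (adjusted p 0.0684 to 0.130).

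The MEIS1 transcript itself was 47.4 CPM in LV-MEIS1 and 29.7 CPM in HOXB13ko-LV-MEIS1, and the part of this in the differences was not tested. Of the 52 genes, 39 had a positive difference of effects (8 of 15 alpha, 15 of 18 beta and 16 of 19 gamma), beside 51.7% of all genes. The median was 0.36 over the members and 0.02 over all genes.

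The last comparison sets the 2 lines with exogenous MEIS1 against each other. In HOXB13ko-LV-MEIS1 against LV-MEIS1, 1 of the 52 genes was called, and it fell, beside 6.71% of all genes (3.29% higher and 3.42% lower). Against no change limma eBayes called 14 members higher and 8 lower, beside 50.1% of all genes (24.0% higher and 26.1% lower). PCDHB5 fell by 1.19 on the log2 scale (SE 0.10, limma treat adjusted p = 0.00040), from 17.2 to 18.2 CPM down to 7.37 to 7.52 CPM. PCDHA10 went the other way by 0.29 (SE 0.08), short of the threshold, and PCDHGA3 had -1.18 (SE 0.21, adjusted p = 0.083). PCDHGA3 also passed without Control replicate 1 or LV-MEIS1 replicate 1 (adjusted p = 0.0493 and 0.0216), which made the count 2. Over the members 29 of 52 had a positive log2 fold change (37 of 52 with quantile-normalized libraries), beside 47.6% of all genes, and all libraries lay above for 15 and below for 8, beside 28.2% and 30.1% of all genes.

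The other genes of the pathway were read from fixed lists. Of 17 regulators of the locus, among them CTCF, the cohesin subunits, SMCHD1 and the DNA methyltransferases, 0 were called by limma treat in any comparison, with log2 fold changes from -0.10 to 0.39 in LV-MEIS1 against Control and from -0.14 to 0.28 in HOXB13ko against Control. In those 2 comparisons 0 had an unadjusted treat p under 0.05, and limma eBayes called 5 and 4 of them, beside the 44.5% and 32.9% of all genes given above. The 5 were all higher, and of the 4, 3 were higher and 1 lower. In the same order, 13 and 14 of the 17 had a positive log2 fold change, beside 51.0% and 49.8% of all genes. CTCF stood at 119 ± 1.7 CPM in Control and between 120 ± 2.78 and 125 ± 2.44 CPM in the other groups. For DNMT1 and NIPBL, named after their values had been seen, no other library overlapped Control. DNMT1 stood at 311 ± 1.34 CPM in Control and between 278 ± 2.01 and 290 ± 5.02 CPM in the other groups. NIPBL stood at 93.2 ± 6.5 CPM and between 105 ± 5.21 and 122 ± 10.8 CPM in the same order. The part of these levels in those of the array was not tested. Of 17 listed partners and processing enzymes of protocadherins, such as FYN, PTK2, the WAVE complex and ADAM10, 0 were called by treat in any comparison (0 at an unadjusted p under 0.05 in the comparisons with Control), and eBayes called 8 of them with LV-MEIS1 and 2 with HOXB13ko compared to Control, beside the same shares of all genes.

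The 9 listed non-clustered protocadherins lie outside the array as separate genes. Limma treat called 2 of them in LV-MEIS1 against Control, beside 3.99% of all genes, and 0 in HOXB13ko against Control, beside 1.41%. In HOXB13ko-LV-MEIS1 it called 0 against HOXB13ko, beside 0.00717%, and 3 against LV-MEIS1, beside 6.71%. For the difference of the MEIS1 effects it called 2, beside 2.93%. The genes called were PCDH10, PCDH1 and PCDH19. PCDH10, an adhesion protein of the delta group, stood at 1.803, 1.644 and 1.388 CPM in Control, 9.08, 7.64 and 8.22 CPM in LV-MEIS1, 1.27, 0.883 and 0.830 CPM in HOXB13ko and 1.10, 0.631 and 0.877 CPM in HOXB13ko-LV-MEIS1. It was high in LV-MEIS1 only, and rose there by 2.06 on the log2 scale against Control (SE 0.17, limma treat adjusted p = 1.7e-05). PCDH1 moved the opposite way, at 9.65, 13.2 and 10.4 CPM in Control and 4.37, 3.19 and 4.14 CPM in LV-MEIS1 (-1.40, SE 0.13, adjusted p = 0.00041). PCDH19 was called only between the 2 lines with exogenous MEIS1, at 29.7 ± 1.61 CPM in LV-MEIS1 and 10.6 ± 1.42 CPM in HOXB13ko-LV-MEIS1 (-1.46, SE 0.10, adjusted p = 6.2e-06).

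The genes around the array were counted in the same way. Of 29 other listed genes within 1 Mb of the array's ends or inside it, 12 had a positive log2 fold change in LV-MEIS1 against Control (median -0.09), and 11 had one with HOXB13ko compared to Control (median -0.07), and 0 were called by treat in the latter (0 also at an unadjusted p under 0.05, and 7 by eBayes, beside 32.9% of all genes). In LV-MEIS1 against Control 3 were called by treat, beside 3.99% of all genes, all beyond the gamma end: FCHSD1 and SPRY4 higher and PCDH1 lower. There limma eBayes called 12 of the 29, with 6 higher and 6 lower, beside 44.5% of all genes. SPRY4, an inhibitor of receptor tyrosine kinase signalling, had 4.48 ± 0.394 CPM in Control and 21.4 ± 1.67 CPM in LV-MEIS1. FCHSD1, an F-BAR domain protein, had 7.07 ± 0.532 and 17.4 ± 0.82 CPM in the same order. The FCHSD1 call was lost without either of 2 libraries (limma treat adjusted p 0.062 and 0.0642).

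Markers of other cell types were read beside these results, since protocadherins are neuronal adhesion genes. Of 12 neuronal markers 5 were listed, and their summed level ran from 133 to 141 CPM in Control, between 80.2 and 92.5 CPM in LV-MEIS1, 107 to 113 CPM in HOXB13ko and 110 to 117 CPM in HOXB13ko-LV-MEIS1. Against Control this was opposite in direction to the array, whereas from LV-MEIS1 to the 2 groups labelled HOXB13ko both were higher. Of the 5, 3 fell in the 1.5-fold test in LV-MEIS1 against Control (SNAP25, SYP and TUBB3), beside 2.24% of all genes called lower. In HOXB13ko against Control 2 fell (SNAP25 and SYP), beside 0.76% of all genes. SNAP25 was low, at 4.64 ± 0.708 CPM in Control, 1.36 ± 0.346 CPM in LV-MEIS1 and 0.648 ± 0.144 CPM in HOXB13ko. MAP2 and SYT1 did not pass the test and had higher means. MAP2 stood at 55.2 ± 4.5 CPM in Control, 59.9 ± 6.91 CPM in LV-MEIS1 and 71.9 ± 4.57 CPM in HOXB13ko. SYT1 stood at 1.15 ± 0.189 CPM in Control, 1.66, 2.21 and 1.52 CPM in the LV-MEIS1 libraries and 1.73 ± 0.344 CPM in HOXB13ko. Of 7 fibroblast markers 2 were listed, at a summed 14.6 to 17.9 CPM in Control, between 30.2 and 34.9 CPM in LV-MEIS1, 19.1 to 20.8 CPM in HOXB13ko and 16.2 to 18.9 CPM in HOXB13ko-LV-MEIS1. That sum is nearly all COL1A1 (14.5 ± 1.1 CPM in Control and 32.8 ± 2.46 CPM in LV-MEIS1), and PDGFRB went the other way (1.41 ± 0.618 and 0.266 ± 0.0734 CPM). Of 6 leukocyte markers 1 was listed, at 0.682 to 3.56 CPM over the 12 libraries, and of 5 endothelial markers 0 were listed. The part of these levels in the protocadherin results was not tested.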

How the data were processed

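Poly(A) RNA-seq of 12 libraries (4 groups of 3) was analysed, grouped by sample titles. Per the labels and the study's methods, the authors trimmed 50-base single-end reads (Trimmomatic 0.38), quantified them against Ensembl GRCh38.p12 transcripts with kallisto 0.43.1, summed estimated counts per gene with tximport, dropped genes with low counts (under 10), and normalized in edgeR 3.22.2. The deposited values are CPM for 13993 rows, of which 42 exact repeats were removed. Strand was not used in the quantification as far as its stated settings go, so antisense reads cannot be told apart. Estimated counts are not whole (46.9% to 61.4% of values under 1 CPM lay within 0.1 read of a whole multiple of the library's step), so no count model was run and depths are estimates.

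The test was limma 3.58.1 in R 4.3.3 on log2(CPM + 0.5), 1 mean per group over 12 libraries, with treat at 1.5-fold, the fold threshold of the study's methods, Benjamini-Hochberg adjusted p under 0.05 over 13951 genes, and eBayes as an alternative. It was tested on simulated data. Coordinates, exon lengths and shared 50-base stretches come from GENCODE 44, which is later than the authors' annotation, and promoters from RefSeq GRCh38.p14. Named genes were the members called in any comparison, the member highest in level and those with the highest and lowest change in LV-MEIS1 against Control in each cluster, and called genes of the lists and of the neighbourhood. The genes beside PCDHB5 and PCDHA10, and PCDHB13, PCDHGA10, the lowest members per length, DNMT1 and NIPBL, were named after their values had been seen. The members, lists and rules were chosen with earlier results of these data known.

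Alternatives were other pseudocounts (0.1 and 1), dropping genes that average below 1 CPM, 3 other scalings, a replicate block, a fit over only the compared groups, and leaving out each library. Protein sequences were not used here.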

Additional observations from a re-analysis of the deposited data

Results flagged for a closer look

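The effect of exogenous MEIS1 differed between the 2 backgrounds for 7 of the named genes, by the direct test of the difference. The difference is LV-MEIS1 against Control minus HOXB13ko-LV-MEIS1 against HOXB13ko (limma treat at 1.5-fold, adjusted over all genes). Of all genes, 2.93% were called by it. A call by this test was itself a ground for naming a gene, so the count of 7 follows in part from the naming rule. Among the clustered protocadherins the differences were 2.16 for PCDHB5, 1.26 for PCDHA10 and 1.67 for PCDHGA3 on the log2 scale. Among the other genes they were 2.19 for PCDH10, -1.57 for PCDH1, 2.48 for SPRY4 and 1.45 for FCHSD1. The call on PCDHGA3 was lost without any one of 9 libraries and that on FCHSD1 without any one of 7. HOXB13 mRNA was higher in the libraries labelled HOXB13ko than in Control, and knockout was checked on protein per the study's methods, which these tables do not hold.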

How the results depend on the processing

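Tested against no change (limma eBayes), the members called numbered 22 in LV-MEIS1 against Control, 23 in HOXB13ko against Control, 22 in HOXB13ko-LV-MEIS1 against LV-MEIS1 and 16 for the difference of the MEIS1 effects. The count in HOXB13ko-LV-MEIS1 against LV-MEIS1 was 2 with a pseudocount of 0.1, with quantile normalization and in the fit over only these groups, and 1 to 2 with 1 library left out (2 without Control replicate 1 or LV-MEIS1 replicate 1). With 1 library left out, the count in HOXB13ko against Control ranged from 2 (without Control replicate 3) to 5. In LV-MEIS1 against Control it then ranged from 2 to 3, and for the difference from 2 to 4. With a pseudocount of 0.1 and with quantile normalization, the count in HOXB13ko against Control went above that range. PCDHB5 and PCDHGB7 then passed beside the 4 genes of the main fit. In HOXB13ko-LV-MEIS1 against HOXB13ko the count was 0 under every alternative run. PCDHB5 in HOXB13ko against Control passed with a pseudocount of 0.1 (adjusted p = 0.0253), with quantile normalization (0.0325) and without Control replicate 1 (0.0472). PCDHGB7 in that comparison passed with a pseudocount of 0.1 (0.0253), with quantile normalization (0.0475) and without LV-MEIS1 replicate 3 (0.0472) or HOXB13ko replicate 1 (0.0151). PCDHGA3 in the difference of effects did not pass with a pseudocount of 1 (0.0739), with quantile normalization (0.0742) or with the replicate block (0.0822). The cluster sums moved by less than the spread between libraries under the planned scalings, the filter and each library left out, and kept their direction except the beta sum in HOXB13ko-LV-MEIS1 against HOXB13ko, whose log2 ratio of -0.02 was 0.0073 without HOXB13ko-LV-MEIS1 replicate 1. Leaving out PCDHA10, chosen after seeing the data, turned the log2 ratio of the alpha sums in LV-MEIS1 against Control to -0.11. It lowered the ratio of HOXB13ko to Control to 0.11, and that of HOXB13ko-LV-MEIS1 to LV-MEIS1 to 0.083, and left that of HOXB13ko-LV-MEIS1 to HOXB13ko at -0.14. Leaving out PCDHB5 in the same way gave log2 ratios of the beta sums of 0.39 for LV-MEIS1 over Control and 0.23 for HOXB13ko-LV-MEIS1 over LV-MEIS1.

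Replicate numbers did not pair the libraries: the deviations of same-numbered libraries from their group means correlated between -0.209 and 0.146, with 2 of 18 pairs over 0.1. With the replicate block the members called were 2, 4, 0, 1 and 2 in the 5 comparisons, in the order of the report with the difference of effects last. Over all genes they were 522, 166, 2, 895 and 356, where the fit without the block gave 557, 197, 1, 936 and 409.

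Values of single alpha and gamma genes depend on how reads of shared exons were divided, and with 1 derived population per group the manipulation and other differences between populations cannot be told apart.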
